A study of Mus musculus with 6 samples.

Results

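The genes described are 10 of the MHC class I antigen presentation pathway, taken by name from a table of 49585 mouse gene IDs. They are the classical heavy chains H2-K1 and H2-D1, their light chain B2m, the peptide transporter subunits Tap1 and Tap2, tapasin (Tapbp), the class I transactivator Nlrc5, and the immunoproteasome subunits Psmb8, Psmb9 and Psmb10. All 10 were in the table and all 10 passed the filter on low counts, among 15812 genes tested. The counts come from RNA-seq of 6 libraries of mouse acute myeloid leukemia cells that carry the KMT2A-MLLT3 fusion. The leukemias, named K3117 and K3174, each gave 1 library labelled DOT1L High, 1 labelled DOT1L Low and 1 labelled NT, so that every label had 2 libraries. DOT1L is the histone methyltransferase that methylates histone H3 in the bodies of active genes, and MLLT3 is one of its binding partners. Per the labels' protocols, marrow of sick mice was transduced with DOT1L, populations that expressed it at a high and a low level were sorted, and RNA was taken 3 days later from cells kept with IL3, IL6 and SCF. NT is not spelled out in the labels, nor are the mouse strain, the age of the mice, the construct or any treatment of the NT cells, so handling and introduced DOT1L cannot be told apart in comparisons with NT. The labels do not say either that K3117 and K3174 came from separate mice. The p-values measure the spread left between these libraries once label and leukemia are fitted, with information shared across genes.

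Class I molecules carry short peptides from proteins made inside the cell to its surface, where CD8 T cells read them. The peptides are cut by the proteasome, whose catalytic subunits Psmb5, Psmb6 and Psmb7 can be replaced by the immunoproteasome subunits Psmb8, Psmb9 and Psmb10. TAP1 and TAP2 pump the peptides into the endoplasmic reticulum, where tapasin helps to load them onto a heavy chain paired with beta-2 microglobulin, the product of B2m. Most of these genes are induced by interferon gamma, and NLRC5 raises the transcription of many of them by joining DNA-bound factors at class I promoters.

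The libraries held between 22908445 and 33265848 counts. Dot1l itself had 158.0, 152.0 and 136.4 CPM (counts scaled to the size of the library) in NT, Low and High of K3174, and 127.8, 183.7 and 149.8 CPM in NT, Low and High of K3117. Its log2 fold change for High against NT was -0.00 ± 0.15 (adjusted p = 1.0). Dot1l counts thus did not follow the labels, whether the construct's reads count as the mouse gene is not stated, and High, Low and NT below mean the libraries so labelled. The myeloid markers Ptprc, Kit, Mpo, Cd34, Itgam, Hoxa9, Meis1 and Spi1 were counted in all 6 libraries, with a summed level between 1205 and 3424 CPM. In the fit described below, 4 of these 8 rose with the High label relative to NT (Spi1, Mpo, Itgam and Kit). Another 3 fell (Meis1, Hoxa9 and Cd34), where 10.0% of all genes tested rose and 7.32% fell. Mpo had 526 CPM in NT and 2118 CPM in High of K3174, and 30.5 and 913 CPM in K3117. Without leukemia as a block in the fit, 3 of the 8 passed.

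With the High label, 8 of the 10 class I pathway genes fell and none rose relative to NT, where 7.32% of all genes tested fell and 10.0% rose. Psmb8, Nlrc5, Psmb9, Tap2 and Tap1 fell by between 2.24-fold and 2.71-fold, Psmb10 by 1.61-fold, H2-K1 by 1.45-fold and H2-D1 by 1.29-fold, while B2m and Tapbp did not pass the test. The median log2 fold change of the 10 genes was -0.92, against -0.01 over all genes tested. Calls rest on quasi-likelihood F tests in edgeR, with leukemia as the block and Benjamini-Hochberg adjustment over the 15812 genes, at an adjusted p of 0.05. Without the block, 3 of the 10 passed (Tap2, Psmb8 and Psmb9), and without the K3174 High library 5 passed. In bulk RNA, fewer cells of a type and less RNA per cell cannot be told apart. In both leukemias, 8 of the 10 genes stood in the order NT above Low above High, all except B2m and Tapbp, which held for 11.0% of all genes tested. For H2-D1 in K3174 the step from Low to High was almost level, at 295 and 294 CPM. High lay below NT within both leukemias for 9 of the 10, all except B2m, against 33.6% of all genes.

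**Figure D1:**
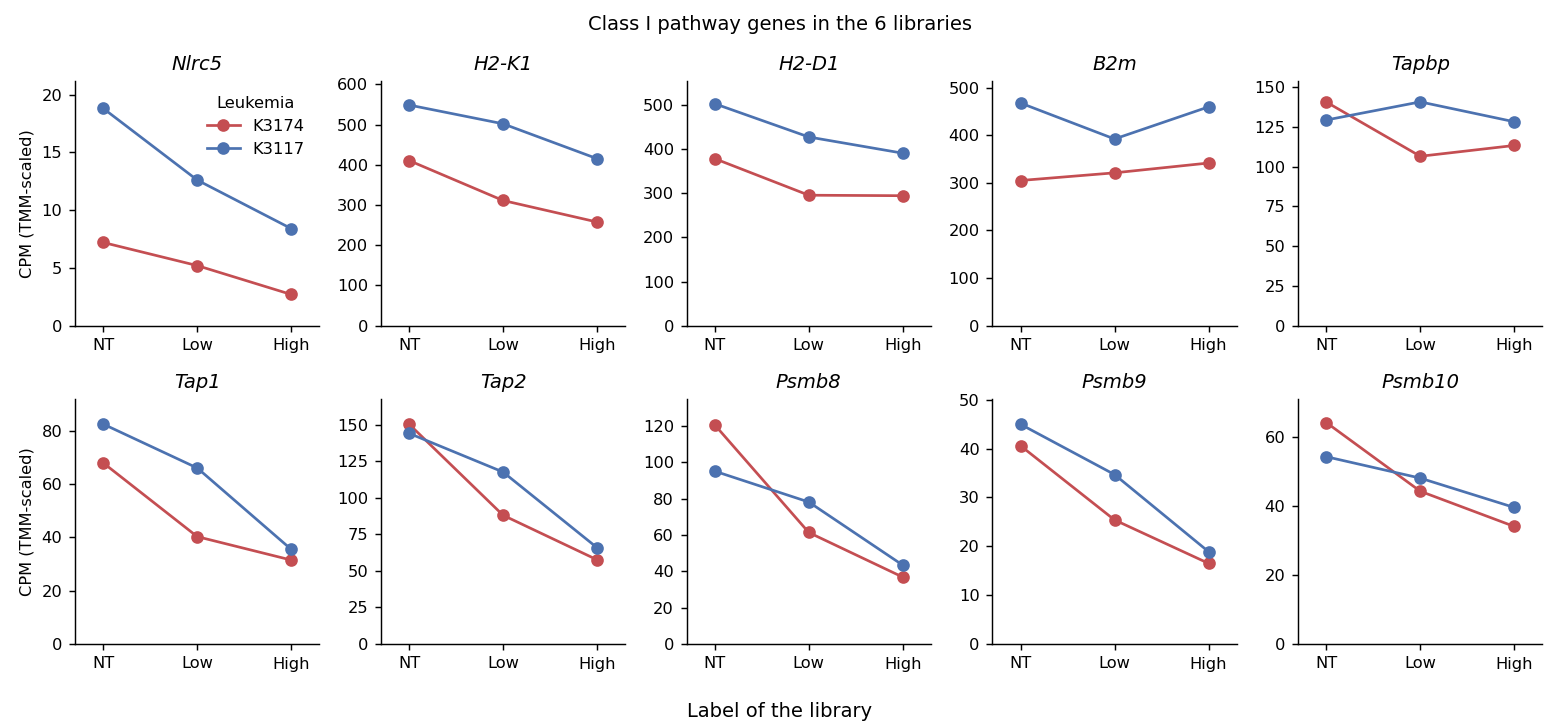
Levels in CPM of the 10 class I pathway genes by label, NT, DOT1L Low and DOT1L High, on a linear axis from 0; each point is 1 library, red for K3174 and blue for K3117, and lines join the libraries of a leukemia. Lines slope down across the labels in both leukemias for 8 genes, though that of H2-D1 is almost level between Low and High in K3174. Those of B2m and Tapbp do not. The red line lies below the blue one throughout for H2-K1, H2-D1, B2m, Tap1, Nlrc5 and Psmb9.

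Levels between genes were set side by side per length, as TPM (transcript abundance scaled for length and library size). The length of a gene was that of all its annotated exons merged, which can exceed the length of the transcripts in use. The order of the genes depends on these lengths. B2m was the most abundant, with a mean of 1418 TPM over the 6 libraries (1131 to 1792), and no other gene of the 10 reached that range. H2-D1 followed at 474 TPM (354 to 642) and H2-K1 at 445 TPM (272 to 615), with ranges that overlapped. Tapbp averaged 111 TPM (95.1 to 126), Psmb10 89.0 TPM (62.0 to 120), Tap2 88.4 TPM (47.3 to 127) and Psmb8 69.0 TPM (33.8 to 114), so these neighbours overlapped too. Tap1, at 31.7 TPM (17.9 to 49.7), and Psmb9, at 26.5 TPM (14.0 to 40.6), also overlapped each other. Nlrc5 was the lowest, at 3.47 TPM (0.972 to 7.28).

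Nlrc5, the regulator of the set, was expressed at a low level and was lowest with the High label in each leukemia. The gene (ENSMUSG00000074151.13) lies on chromosome 8 at 94434356 to 94527272 of GRCm38, plus strand. It had 7.22, 5.19 and 2.66 CPM in NT, Low and High of K3174 (165, 173 and 79 counts), and 18.8, 12.6 and 8.36 CPM in NT, Low and High of K3117 (624, 392 and 188 counts). The K3117 High library thus lay above the K3174 NT library, and High and NT overlapped across leukemias although each leukemia showed the same order. Nlrc5 averaged 5.51 ± 4.03 CPM in High and 13.0 ± 8.16 CPM in NT (SD, n = 2 each). Its log2 fold change for High against NT was -1.29 ± 0.20 (SE, adjusted p = 0.00077), with -1.42 within K3174 and -1.16 within K3117. The call was lost without the leukemia block (adjusted p = 0.40) and kept under the other 12 alternatives, over which the adjusted p was at most 0.0015.

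Both classical heavy chains fell with the High label, by smaller fitted folds than Nlrc5. H2-K1 (ENSMUSG00000061232.15, chromosome 17, 33996017 to 34000347, minus strand) had 411, 311 and 258 CPM in NT, Low and High of K3174, and 548, 502 and 415 CPM in NT, Low and High of K3117. H2-D1 (ENSMUSG00000073411.11, chromosome 17, 35262730 to 35267499, plus strand) had 378, 295 and 294 CPM in the same order of labels in K3174, and 502, 427 and 390 CPM in K3117. For both genes the lower High library was that of K3174, and the K3117 High library lay above the K3174 NT library, so High and NT overlapped across leukemias. The log2 fold change for High against NT was -0.54 ± 0.12 for H2-K1 (adjusted p = 0.0098), with -0.67 in K3174 and -0.40 in K3117. For H2-D1 it was -0.36 ± 0.11 (adjusted p = 0.04997), with -0.36 in each leukemia. H2-K1 did not pass without the K3174 High library (adjusted p = 0.13) or without the block (0.43), and its adjusted p over all alternatives ran between 4.7e-05 and 0.43. H2-D1 sat at the threshold. Its adjusted p was 0.30 without the K3117 High library, 0.089 without K3117 Low, 0.26 without K3174 High, 0.11 without K3174 Low, 0.060 without K3174 NT and 0.46 without the block, and it ran between 0.014 and 0.46 over all alternatives. Of 2591 windows of 150 bases in its transcripts, 1.4% also occur in H2-Q1, whose reads could be counted as H2-D1.

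B2m, the light chain that every class I heavy chain needs at the surface, did not pass in either direction. The gene (ENSMUSG00000060802.8) lies on chromosome 2 at 122147686 to 122153083, plus strand. It had 305, 321 and 342 CPM in NT, Low and High of K3174, and 468, 392 and 459 CPM in NT, Low and High of K3117. The labels therefore had no common order in the leukemias, and the B2m level of each K3117 library exceeded that of each K3174 library. The log2 fold change for High against NT was 0.07 ± 0.12 (adjusted p = 0.79), with a 95% interval from -0.20 to 0.34.

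The stretches before the start sites of H2-K1, H2-D1 and B2m are shown because these are the pair of heavy chains that fell and the light chain that did not pass, and because they carry the same spaced elements. They are RefSeq sequences of GRCm38.p6, each 250 bases that end just before the RefSeq start site, in the direction of the gene. In the GENCODE positions given above, H2-D1 starts at 35262730, so its stretch lies within that span. Capitals mark, on either strand, the palindromic NF-kB element of class I enhancer A (the long run of capitals in both heavy chains), the core of an interferon response element (the long run in B2m), TGACG (the core of a cAMP response element) and CCAAT (the NF-Y box, ATTGG on the other strand).
H2-K1, chr17:34000348-34000597, minus strand: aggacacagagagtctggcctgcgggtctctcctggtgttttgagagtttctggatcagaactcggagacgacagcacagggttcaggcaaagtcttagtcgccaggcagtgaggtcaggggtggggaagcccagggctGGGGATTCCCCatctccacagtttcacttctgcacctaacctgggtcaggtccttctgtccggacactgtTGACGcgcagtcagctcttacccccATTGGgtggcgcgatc
H2-D1, chr17:35262844-35263093, plus strand: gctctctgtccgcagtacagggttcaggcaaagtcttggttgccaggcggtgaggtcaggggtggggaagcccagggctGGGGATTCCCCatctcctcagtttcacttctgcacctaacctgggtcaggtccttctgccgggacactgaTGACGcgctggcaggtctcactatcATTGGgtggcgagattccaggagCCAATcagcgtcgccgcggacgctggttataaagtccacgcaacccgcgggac
B2m, chr2:122147437-122147686, plus strand: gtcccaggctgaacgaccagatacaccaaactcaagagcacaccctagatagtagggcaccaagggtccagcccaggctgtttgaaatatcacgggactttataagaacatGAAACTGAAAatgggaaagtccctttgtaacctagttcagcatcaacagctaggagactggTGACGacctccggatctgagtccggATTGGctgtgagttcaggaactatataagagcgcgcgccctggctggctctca

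Both heavy chain stretches held the enhancer A element, which occurred in 0.0304% of all 32851 RefSeq promoter windows (250 bases before to 50 after the start). A looser kB pattern, which overlaps it, was found in H2-K1, H2-D1 and B2m and in 18.4% of windows. In all 3 stretches, TGACG was followed by ATTGG with 20 letters between them, an arrangement held by 19 of the 32851 windows (0.0578%). This spacing was chosen after the sequences had been read. Among the members with a window, B2m alone matched the pattern used for the interferon response element core (3.44% of windows). That search allowed no mismatch at the fixed letters of the pattern, and looser forms of this element were neither searched for nor marked. It therefore cannot show that the heavy chain stretches lack an interferon element. The full cAMP response element TGACGTCA was in none of the members' windows (1.79% of windows). Of the 10 genes, 8 matched the promoter table, and Tap2 and Nlrc5 did not. A match describes letters in a window and is neither a measured binding site nor a cause.

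The peptide transporter genes fell together with the High label. Tap2 (ENSMUSG00000024339.12, chromosome 17, 34203527 to 34216321, plus strand) had 150.5, 88.1 and 57.6 CPM in NT, Low and High of K3174, and 144, 118 and 65.9 CPM in NT, Low and High of K3117. Tap1 (ENSMUSG00000037321.17, chromosome 17, 34187553 to 34197225, plus strand) had 68.0, 40.3 and 31.5 CPM in the same order in K3174, and 82.6, 66.1 and 35.5 CPM in K3117. For each gene both High libraries lay below both Low and both NT libraries. Tap2 averaged 61.8 ± 5.85 CPM in High and 147 ± 4.43 CPM in NT (SD, n = 2 each), a log2 fold change of -1.26 ± 0.14 (adjusted p = 6.7e-05). Tap1 averaged 33.5 ± 2.81 CPM in High and 75.3 ± 10.3 CPM in NT, a log2 fold change of -1.16 ± 0.15 (adjusted p = 0.00024). Without the block Tap1 missed the threshold (adjusted p = 0.064), and it passed under the other 12 alternatives, with an adjusted p of at most 0.0007. The ratio of Tap1 to Tap2 counts per kilobase was 0.377 in High and 0.312 in NT of K3174, and 0.372 in High and 0.395 in NT of K3117, so it moved in opposite directions in the leukemias.

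Tapbp, the chaperone that bridges the transporter and the heavy chain, did not pass for High against NT. It (ENSMUSG00000024308.14, chromosome 17, 33915899 to 33929292, plus strand) had 141, 107 and 113 CPM in NT, Low and High of K3174, and 129, 141 and 128 CPM in NT, Low and High of K3117. Both DOT1L libraries of K3174 lay below its NT library, which was not so in K3117. The log2 fold change for High against NT was -0.17 ± 0.14 (adjusted p = 0.48), with a 95% interval from -0.47 to 0.13, and Tapbp passed only when the K3117 NT library was left out (adjusted p = 0.028, over a range of 0.028 to 0.87 in all alternatives). Its exons overlap those of Zbtb22 on the same strand over 149 bases, 4.1% of its exon length.

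The 3 immunoproteasome subunits all fell with the High label. Psmb8 (ENSMUSG00000024338.14, chromosome 17, 34197721 to 34201454, plus strand), the chymotrypsin-like subunit, had 121, 61.4 and 36.8 CPM in NT, Low and High of K3174, and 95.2, 78.2 and 43.4 CPM in NT, Low and High of K3117. Psmb9 (ENSMUSG00000096727.2, chromosome 17, 34181987 to 34187764, minus strand), which takes the place of Psmb6, had 40.6, 25.4 and 16.5 CPM in the same order in K3174, and 45.0, 34.7 and 18.9 CPM in K3117. Psmb10 (ENSMUSG00000031897.9, chromosome 8, 105935735 to 105938444, minus strand), the trypsin-like subunit, had 64.1, 44.2 and 34.0 CPM in K3174, and 54.2, 48.0 and 39.5 CPM in K3117. For each of them both High libraries lay below both Low and both NT libraries. The log2 fold changes for High against NT were -1.44 ± 0.16 for Psmb8 (adjusted p = 0.0001), -1.28 ± 0.14 for Psmb9 (adjusted p = 9.5e-05) and -0.69 ± 0.14 for Psmb10 (adjusted p = 0.0059). Psmb8 and Psmb9 passed under all 13 alternatives, whereas Psmb10 did not pass without the K3174 High library (adjusted p = 0.11) or without the block (0.059), with a range over alternatives of 3.3e-06 to 0.11. Across the 10 genes, both High libraries lay below both NT libraries for 6 (Tap1, Tap2, Tapbp, Psmb8, Psmb9 and Psmb10), as they did for 25.3% of all genes tested.

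**Figure D2:**
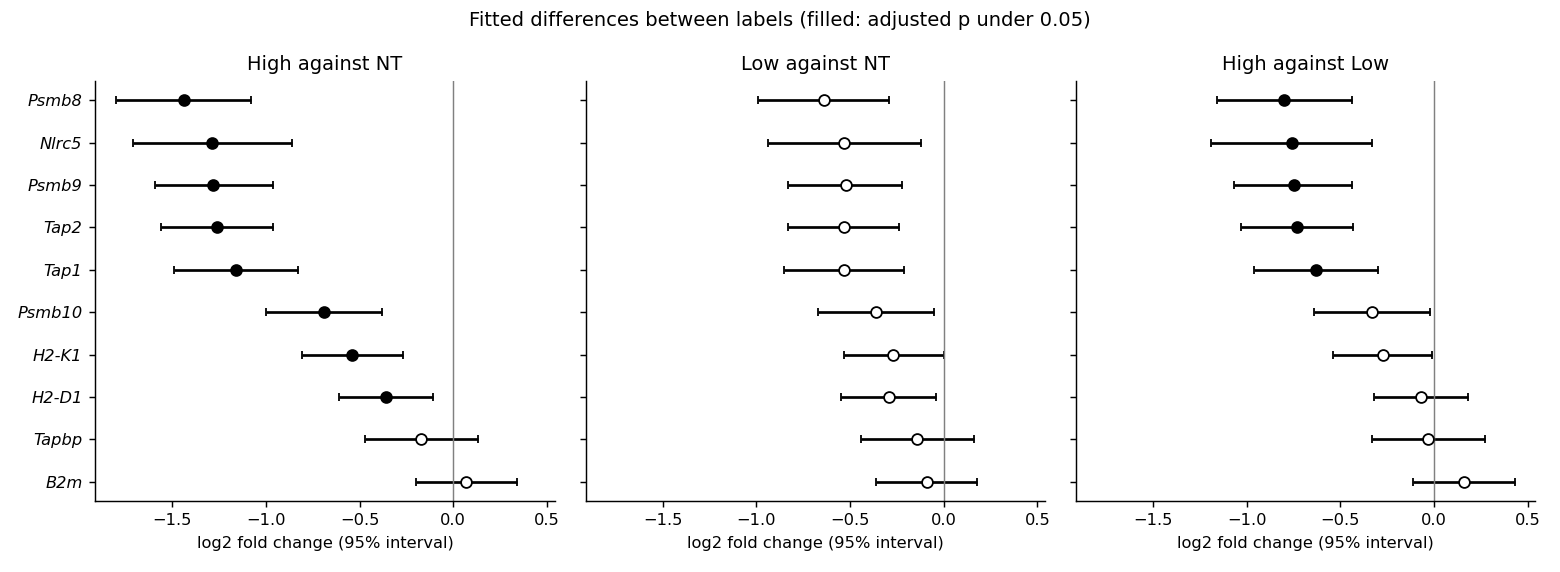
Log2 fold changes of the 10 class I pathway genes with 95% intervals from the edgeR fit, for DOT1L High against NT, DOT1L Low against NT and DOT1L High against DOT1L Low; filled points have an adjusted p under 0.05. High against NT has 8 filled points, between -1.44 and -0.36, Low against NT has none, and High against Low has 5.

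Tap1 and Psmb9 are divergent neighbours. The stretch between their RefSeq start sites, which lie 226 bases apart, is shown because it lies before both of these sites and both genes fell. In the GENCODE positions given above, Psmb9 extends to 34187764 and so spans this stretch.
Tap1 with Psmb9, chr17:34187331-34187555, plus strand (the direction of Tap1): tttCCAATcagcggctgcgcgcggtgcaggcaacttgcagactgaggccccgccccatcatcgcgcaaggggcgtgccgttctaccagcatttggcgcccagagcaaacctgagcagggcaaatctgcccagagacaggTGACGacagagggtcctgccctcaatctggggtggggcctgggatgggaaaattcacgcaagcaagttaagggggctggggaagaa
The stretch held 1 CCAAT and 1 TGACG, patterns found in 37.4% and 20.8% of all windows. The ratio of Psmb9 to Tap1 counts per kilobase was 0.785 in High and 0.893 in NT of K3174, and 0.795 in High and 0.816 in NT of K3117, a smaller change than that of either gene. Exons of the pair overlap on opposite strands over 212 bases, 5.8% of the exon length of Psmb9, and because the use of strand in counting is not stated, reads there cannot be assigned to one of them.

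The constitutive subunits that the immunosubunits replace did not pass, and they moved in opposite directions in the leukemias. For High against NT, the log2 fold change was -0.02 ± 0.15 for Psmb5 (adjusted p = 0.96), -0.20 ± 0.14 for Psmb6 (adjusted p = 0.41) and -0.01 ± 0.13 for Psmb7 (adjusted p = 0.97). The log2 difference of Psmb5 was -0.29 in K3174 and 0.27 in K3117. It was -0.45 and 0.07 for Psmb6, and -0.14 and 0.11 for Psmb7. Without the K3117 NT library, Psmb6 stood at -0.43, a larger fall than the -0.20 with all 6 libraries, so its not passing depended on that library. The ratio of Psmb8 to Psmb5 counts per kilobase, a value within a library that does not depend on library scaling, was 0.398, 0.243 and 0.148 in NT, Low and High of K3174, and 0.402, 0.284 and 0.153 in NT, Low and High of K3117. The ratio of Psmb9 to Psmb6 was 0.138, 0.111 and 0.0764 in K3174, and 0.175, 0.126 and 0.0698 in K3117. The ratio of Psmb10 to Psmb7 was 1.25, 0.876 and 0.731 in K3174, and 1.09, 1.09 and 0.734 in K3117. All 3 ratios were lowest in the High library of each leukemia, and the High value was between 0.372 and 0.673 of the NT value. With 1 library per label and leukemia these ratios have no test of their own. Their absolute size rests on the merged exon lengths, whereas their change between labels does not. The lengths were 3381 bases for Psmb8 and 899 for Psmb5, and 3660 for Psmb9 and 1872 for Psmb6. For the last pair they were 1705 bases for Psmb10 and 3421 for Psmb7.

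**Figure D3:**
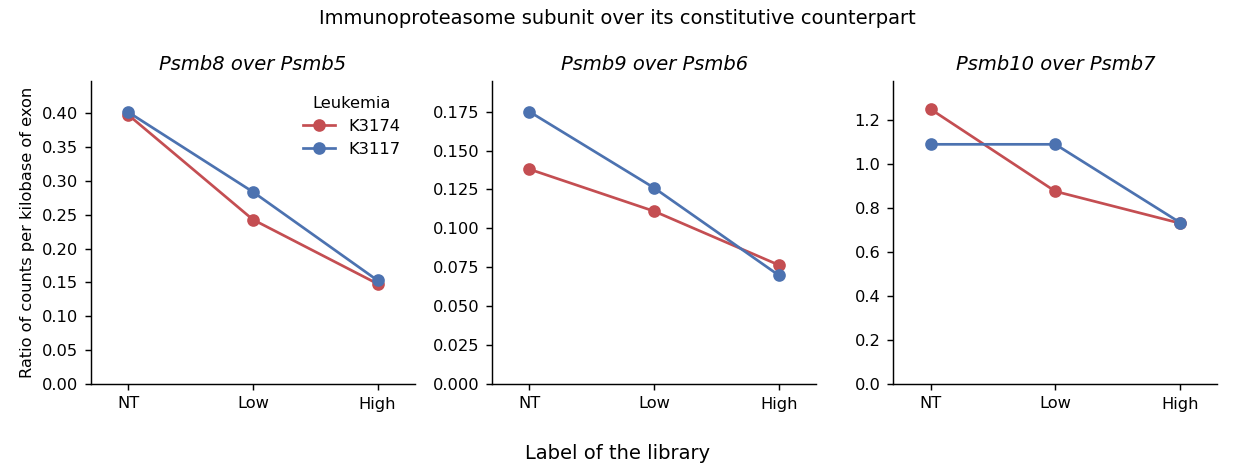
Ratio of immunoproteasome to constitutive subunit, in counts per kilobase of exon, by label (NT, DOT1L Low, DOT1L High) with 1 point per library, red for K3174 and blue for K3117. The Psmb8 to Psmb5 ratio lies at 0.148 and 0.153 in High against 0.398 and 0.402 in NT, and the other 2 ratios are also lowest in High.

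The Low label showed a smaller difference from NT, and none of the 10 genes passed in that comparison with edgeR, where 3.34% of all genes tested passed, 1.29% lower and 2.05% higher. All 10 fold changes were negative, with a median of -0.44 on the log2 scale against -0.01 over all genes. DESeq2 called 3 of the 10, among 588 genes that it called in all. The values nearest the threshold were Tap2 at -0.53 ± 0.13 (adjusted p = 0.057), Psmb8 at -0.64 ± 0.16 (adjusted p = 0.058), Psmb9 at -0.52 ± 0.14 (adjusted p = 0.075) and Tap1 at -0.53 ± 0.15 (adjusted p = 0.086). Nlrc5 stood at -0.53 ± 0.19 (adjusted p = 0.20). Single libraries moved this count, with 6 genes passing without K3117 NT, 3 without K3117 High, 3 without K3174 High and 1 without K3117 Low.

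Between the sorted populations, 5 of the 10 genes were lower in High than in Low, where 5.48% of all genes tested passed and 1.35% were lower. These were Tap2 at -0.73 ± 0.13 on the log2 scale (adjusted p = 0.0082), Psmb9 at -0.75 ± 0.14 (adjusted p = 0.010), Psmb8 at -0.80 ± 0.16 (adjusted p = 0.014), Tap1 at -0.63 ± 0.15 (adjusted p = 0.031) and Nlrc5 at -0.76 ± 0.20 (adjusted p = 0.047). This contrast sets no NT level against another, although the NT libraries are part of the fit. H2-K1 (-0.27, adjusted p = 0.31), Psmb10 (-0.33, adjusted p = 0.29), H2-D1, Tapbp and B2m did not pass. The count depended on single libraries, as none of the 10 passed without K3117 Low and 2 (Tap2 and Psmb8) without K3117 High. Nlrc5 also missed the threshold without K3174 High (adjusted p = 0.40) or without K3174 Low (0.37), and none passed without the block.

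In K3174 against K3117, with the labels in the fit, 4 of the 10 genes were lower and none was higher, where 9.37% of all genes tested passed, 6.32% lower and 3.05% higher. Nlrc5 was 2.68-fold lower in K3174 (log2 fold change -1.42 ± 0.16, adjusted p = 0.00015), and within the labels the log2 difference was -1.37 in NT, -1.26 in Low and -1.63 in High. H2-K1 stood at -0.60 ± 0.10 (adjusted p = 0.0024), H2-D1 at -0.45 ± 0.09 (adjusted p = 0.0096) and B2m at -0.44 ± 0.10 (adjusted p = 0.015). For these 4 genes all 3 K3174 libraries lay below all 3 K3117 libraries, as they did for 8.83% of all genes tested. K3174 lay below K3117 within each of the 3 labels for 6 of the 10 genes, against 20.9% of all genes. Tap1 (-0.39, adjusted p = 0.072) and Psmb9 (-0.26, adjusted p = 0.22) did not pass, and Tap2, Tapbp, Psmb8 and Psmb10 lay between -0.18 and -0.03. H2-D1 missed the threshold without K3117 Low (adjusted p = 0.11) or K3174 Low (0.14). The count rose to 8 without K3117 NT and 7 without K3174 NT, and was 0 when the leukemias were compared without the labels as terms.

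**Figure D4:**
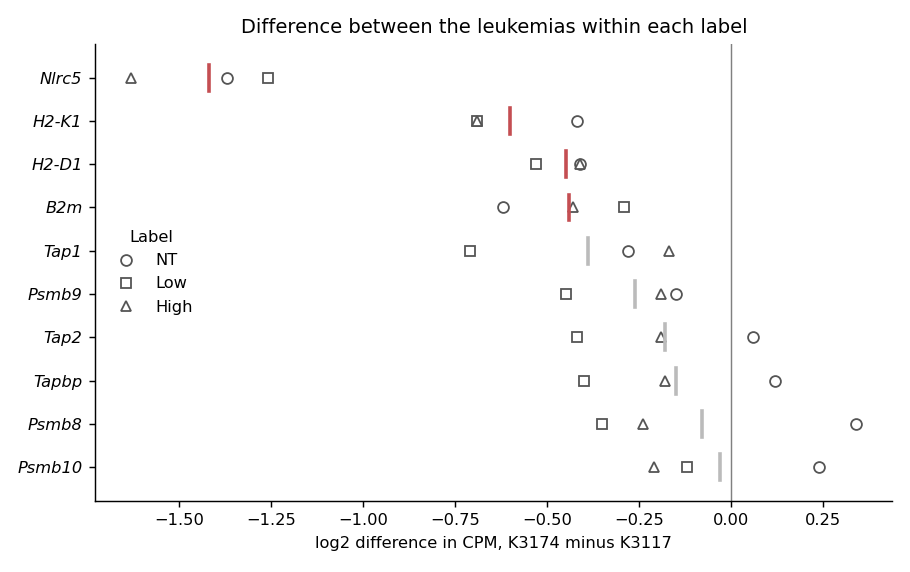
Log2 difference of K3174 minus K3117 for the 10 class I pathway genes, with 1 point for each label and a bar for the fitted fold change, red where the adjusted p is under 0.05 and grey where it is not. Nlrc5 lies lowest, with points between -1.63 and -1.26, and Psmb8, Psmb10, Tap2 and Tapbp have points on both sides of 0.

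Most of the nonclassical and other class I heavy chains that could be tested, which largely pair with the same light chain, also changed. Of 15 tested, 9 fell and 2 rose with the High label, where 7.32% of all genes tested fell and 10.0% rose, with a median log2 fold change of -0.72. H2-Q6 had 4 and 23 counts in High of K3174 and K3117, against 69 and 332 in NT, a log2 fold change of -3.64 ± 0.34 (adjusted p = 2.7e-05). H2-Q7, a Qa-2 gene, stood at -3.19 ± 0.34 (adjusted p = 5.8e-05), H2-Q4 at -1.94 ± 0.24 (adjusted p = 0.00019) and H2-M3, which presents formylated peptides, at -1.43 ± 0.22 (adjusted p = 0.00074). H2-Q6 and H2-Q7 share 6.0% and 5.9% of their windows of 150 bases with other genes, so their counts are uncertain. The genes that rose were H2-M2 (2.21 ± 0.43, adjusted p = 0.0040), with 12 and 109 counts in High against 3 and 32 in NT, and H2-T24 (0.66 ± 0.20, adjusted p = 0.037), both named after their values were seen. H2-T23, the mouse Qa-1 gene, did not pass (-0.29 ± 0.16, adjusted p = 0.27). The count of 11 became 7 without the K3117 High library. With the Low label, H2-Q6 (-1.17 ± 0.27, adjusted p = 0.042) and H2-Q7 (-1.19 ± 0.28, adjusted p = 0.041) passed narrowly. DESeq2 called none of the 15 for Low against NT, and with edgeR none passed without K3117 Low or without K3174 Low, 1 without K3174 NT, 3 without K3117 NT and 4 without either High library.

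Of 10 genes that act beside them in peptide loading and trimming, 1 fell and 1 rose with the High label, with a median of 0.06, where 17.3% of all genes tested passed. Erap1, the aminopeptidase that trims peptides in the endoplasmic reticulum, had 96.2 and 89.2 CPM in High of K3174 and K3117, against 137 and 150 CPM in NT (-0.63 ± 0.12, adjusted p = 0.0032). Tapbpl, the tapasin relative TAPBPR that edits peptides, had 43.0 and 32.0 CPM in High, against 30.3 and 19.3 CPM in NT (0.62 ± 0.14, adjusted p = 0.0085), and did not pass without K3117 High (adjusted p = 0.12) or without the block (0.31). The chaperones Calr (0.05, adjusted p = 0.87) and Pdia3 (0.21, adjusted p = 0.29) did not pass. None of 14 constitutive core genes passed with edgeR, with none at an unadjusted p under 0.05 and none by DESeq2. Their fold changes lay between -0.20 and 0.09, and 2 passed without the K3117 NT library. Of 9 activator and assembly genes, Psme1, a subunit of the interferon-inducible PA28 cap, fell (-0.40 ± 0.12, adjusted p = 0.036) and Psme4, the PA200 cap, rose (0.53 ± 0.12, adjusted p = 0.010). Psme1 lost its call without any 1 of the libraries other than K3117 NT (adjusted p between 0.060 and 0.40), and Psme4 without K3117 High (0.13). Psme2, the partner of Psme1, did not pass (-0.22 ± 0.13, adjusted p = 0.32), and without K3117 NT 4 of the 9 genes passed.

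Of the factors that act on class I promoters, Irf8 was the only one of 18 tested that passed for High against NT, and it fell. Irf8, an interferon regulatory factor of monocytes and dendritic cells, had 62.9 and 74.3 CPM in High of K3174 and K3117, against 176 and 115 CPM in NT (-1.09 ± 0.20, adjusted p = 0.0027). Irf1 (-0.16 ± 0.16, adjusted p = 0.59) and Rfx5 (-0.13 ± 0.15, adjusted p = 0.66), whose products induce or bind class I promoters, did not pass. The median of the 18 was -0.08, and 3 passed without K3117 NT. A list of 10 interferon gamma receptor pathway genes also held Ifnar1, Ifnar2 and Tyk2, which belong to the type I interferon receptor. Of these 10 genes, 2 rose and none fell, with a median of 0.30, where 10.0% of all genes tested rose. The genes that rose were Jak1, a kinase of these receptors, at 0.57 ± 0.11 (adjusted p = 0.0045), and Socs3, a feedback inhibitor of cytokine receptors, at 1.18 ± 0.23 (adjusted p = 0.0046). Jak1 lost its call without K3117 High (adjusted p = 0.066) and Socs3 without the block (0.22), and 1 of the 10 passed in each of these cases. Without K3117 NT 4 passed.

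The interferon-inducible GTPases, another family that interferon gamma raises with class I, also fell in part. Of 12 tested, 6 fell and none rose with the High label, where 7.32% of all genes tested fell and 10.0% rose, with a median of -0.62. Gbp3 had 15.3 and 22.4 CPM in High of K3174 and K3117, against 32.6 and 53.3 CPM in NT (-1.17 ± 0.14, adjusted p = 0.00012). Gbp4 had 0 and 1 counts in High, against 29 and 170 in NT (adjusted p = 6.0e-05). Gbp9 (-2.62 ± 0.54, adjusted p = 0.0054) and Gbp8 (-2.99 ± 0.62, adjusted p = 0.0057) rested on fewer than 10 counts in each High library. The count of 6 became 2 without K3117 High and 2 without K3117 NT, and Gbp9 and Gbp8 were not among those that passed in either case (adjusted p between 0.089 and 0.22). In K3174 against K3117, 9 of the 12 were lower, where 6.32% of all genes tested were, with a median of -1.30. That count was 6 with DESeq2, 3 without K3117 Low, 4 without K3174 Low, 6 without either NT library and 0 without the labels as terms. Irf2 (-0.40, adjusted p = 0.037) and Irf9 (-0.58, adjusted p = 0.044) passed among the 18 regulators, of which none passed without K3117 Low or without K3174 Low, and 6 passed without either NT library. Of 8 subunits of PRC2, the complex that can silence class I genes in tumours, Jarid2 rose (0.50 ± 0.11, adjusted p = 0.0089), though it missed the threshold without K3117 High (adjusted p = 0.13) and without K3174 High (0.073), and 3 of the 8 passed without K3117 NT. Ezh2 did not pass (-0.25 ± 0.11, adjusted p = 0.16). Without the block, none of the other heavy chains, core subunits, activators, regulators or GTPases passed.

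**Figure D5:**
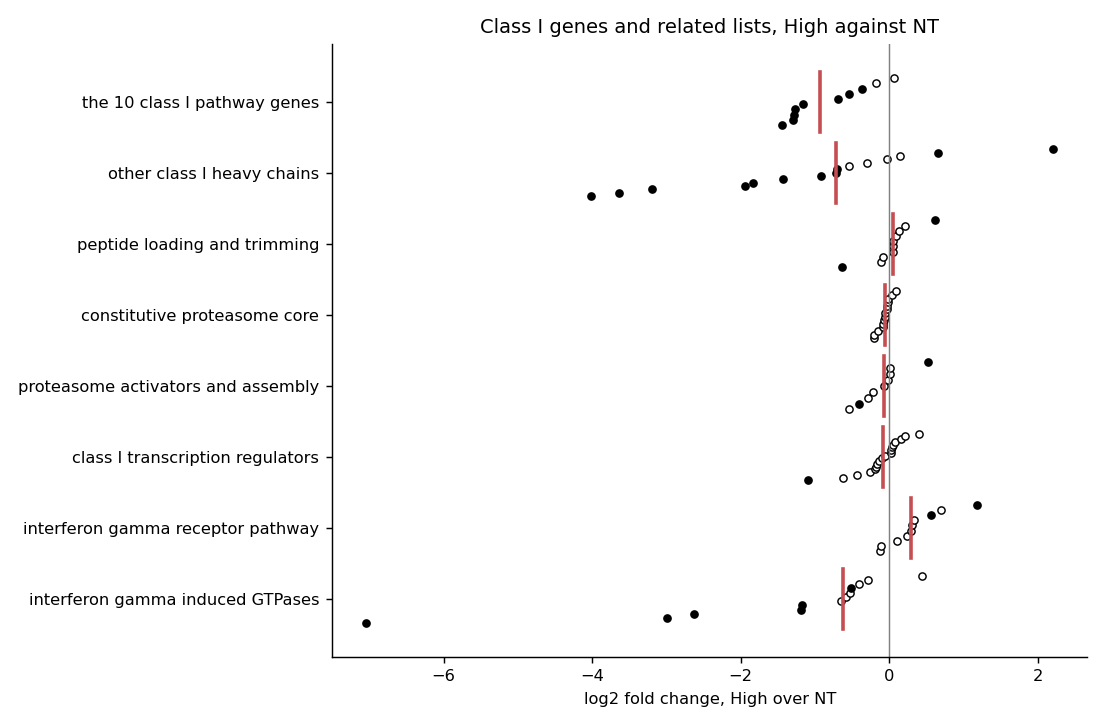
Log2 fold changes for DOT1L High against NT of each tested gene in the 10 class I pathway genes and in the related lists; each point is 1 gene, filled where the adjusted p is under 0.05, and the red bar is the median of the list. The median is -0.92 for the 10 genes, -0.72 for the other heavy chains, -0.62 for the GTPases and -0.06 for the constitutive core, and the leftmost point is Gbp4, whose fitted value depends on the prior count because High held 0 and 1 counts.

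Genes listed as neutrophil or dendritic cell markers moved with the High label beside these results. In bulk RNA, a change of these genes within the leukemia cells and a change in the share of other cells cannot be told apart. Of 8 neutrophil markers tested, 7 rose (Lcn2, Camp, Ngp, S100a9, S100a8, Ltf and Cxcr2), where 10.0% of all genes tested rose. Of Mmp8 and Retnlg, also on the list, 1 did not pass and 1 was too low to be tested. The summed level of all 9 on the list was 6764 and 1517 CPM in High of K3174 and K3117, 1230 and 103 CPM in Low, and 113 and 19.7 CPM in NT. Of 6 dendritic cell markers tested, 3 fell (Flt3, Siglech and Itgax, with log2 fold changes of -5.89, -2.75 and -2.55), where 7.32% of all genes tested fell. The summed level of the 10 on the list was 22.7 and 34.6 CPM in High, 32.4 and 48.4 CPM in Low, and 63.3 and 84.5 CPM in NT, with Cd209a at 0 in every library. Flt3 and Bst2 made up much of this sum, with 27.2 and 31.2 CPM in NT and 0.337 and 20.5 CPM in High of K3174. Zbtb46, Xcr1 and Clec9a held few counts, and Xcr1 and Clec9a were not lower in High than in NT of K3174. Without the block, 1 of the neutrophil markers and 1 of the dendritic cell markers passed. The part of neither in the class I result was tested. T and NK cell markers summed to at most 0.692 CPM in any library and none of the 9 was high enough to be tested. B cell markers summed to between 10.1 and 17.4 CPM, erythroid markers to between 1.02 and 5.47 CPM, and stromal and endothelial markers to between 129 and 230 CPM. Of the 9 stromal and endothelial markers, 3 were high enough to be tested and between 3 and 5 held 0 counts in each library, so their sum does not identify a cell type. The neutrophil sum was higher in K3174 than in K3117 at every label, and the dendritic sum was lower.

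Among 9998 genes with a mean of at least 5 CPM, the genes whose profile was most like that of Nlrc5 were Irgq, Hmgn1, Stam, Rpusd2 and Flt3. Likeness was Pearson's r of log2 CPM centred within each leukemia over the 6 libraries, and it lay between 0.998 and 1.00 for these 5. The nearest of the class I pathway genes was Psmb9 at rank 210 (0.970), followed by Tap2 at rank 254 and Psmb8 at rank 298, while Tapbp stood at rank 3567 and B2m at rank 6043 (-0.344). Flt3, a receptor tyrosine kinase, had 0.337 and 0.711 CPM in High of K3174 and K3117, against 27.2 and 33.5 CPM in NT, a far larger change than that of Nlrc5. The others changed less than Nlrc5 (-1.29) for High against NT. Their log2 fold changes were -0.35 for Irgq, -0.64 for Hmgn1, -0.66 for Stam and -0.43 for Rpusd2. Irgq and Rpusd2 did not pass (adjusted p = 0.11 each), so likeness in shape said little about the size of the change. With 6 libraries that share 3 labels, high values of r are common, and they describe these libraries alone.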

How the data were processed

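RNA-seq counts of 6 libraries, 2 for each of 3 labels, were analysed from a table that the authors deposited as whole-number counts per gene. Per the submitters' processing notes, the tools were DESeq2, kallisto, STAR and STAR-Fusion, with mm10 as the build, and per the labels' protocols reads were paired, of 150 bases; the tool behind the counts, its annotation and its handling of strand were not given in the sources used. Gene names came from a GENCODE table (99.5% of IDs matched; the rest held no more than 0.0204% of any library), and positions and exon lengths from GENCODE for GRCm38. Every pair of libraries differed by more than counting noise (chi-square over its degrees of freedom, 24.2 or more).

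Low genes were removed with filterByExpr and libraries scaled by TMM (factors 0.973 to 1.036), and labels and leukemia were fitted to all 6 libraries in edgeR 4.0.16 (R 4.3.3; 2 residual and 9.38 prior degrees of freedom; biological coefficient of variation 12.0%). Calls needed an adjusted p under 0.05 (Benjamini-Hochberg). SE is the fold change over the root of F, and log2 values within a leukemia were taken with a prior count of 2. The leukemia entered as a block because each K number in the titles stands on 1 library per label. Across genes, a leukemia's deviation from the mean of one label correlated with that in another at 0.57 (Low with NT), 0.44 (High with NT) and 0.64 (High with Low).

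The fit was tested on simulated data. The 13 alternatives were other scalings, filters, DESeq2 1.42.0, no block and leaving out each library. The members and the 15 other lists were chosen with earlier results of these data known. From each list, up to 4 called genes with the smallest p for High against NT were named, with a fixed set of class I regulators, loading genes and proteasome subunits. Not every gene of that set is reported here.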

Additional observations from a re-analysis of the deposited data

Results flagged for a closer look

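B2m and Tapbp moved in opposite directions in the leukemias, each value being the difference of 1 library from another, and the difference between the leukemias was not tested. For High against NT, the log2 difference of B2m was 0.16 in K3174 and -0.03 in K3117. For Low against NT, it was 0.07 in K3174 and -0.25 in K3117. Tapbp differed by -0.40 in K3174 and 0.12 in K3117 for Low against NT, and by 0.09 in K3174 and -0.13 in K3117 for High against Low. None of these fitted comparisons passed the threshold.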

How the results depend on the processing

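Without the replicate block, the counts of genes past the threshold were 493 rather than 2741 for High against NT, 0 rather than 528 for Low against NT, 0 rather than 866 for High against Low and 90 rather than 1481 for K3174 against K3117, and those of the 10 class I pathway genes were 3 rather than 8, 0 as before, 0 rather than 5 and 0 rather than 4. Leaving out 1 library at a time gave 1927 to 4394 genes and 5 to 9 of the 10 for High against NT, 144 to 1483 genes and 0 to 6 of the 10 for Low against NT, 335 to 1982 genes and 0 to 7 of the 10 for High against Low, and 829 to 2642 genes and 3 to 8 of the 10 for K3174 against K3117. With no filter, 1071 genes passed for Low against NT and 1425 for High against Low; with a mean CPM of at least 5, 343, 522 and 849 passed for Low against NT, High against Low and K3174 against K3117. For Low against NT, 2 of the 10 passed with RLE size factors, with upper quartile factors and with library sizes alone, 4 with no filter and 3 with DESeq2. Upper quartile scaling moved the median of all genes for High against NT to -0.11 and the share of calls that were higher to 43.9%, against 57.8% with TMM, 49.1% with library sizes alone and 71.8% without the block.

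The sign turned in values that had not passed in the fit to all 6 libraries. With upper quartile factors, B2m for High against NT was -0.03 and Calr -0.05, and Calr was -0.01 with library sizes alone. Without the block, Psmb8 for K3174 against K3117 was 0.01. With 1 library left out, values for High against NT ran between -0.06 and 0.20 for B2m, -0.37 and 0.05 for Tapbp, -0.35 and 0.01 for Irf1, -0.28 and 0.25 for Psmb5, -0.43 and 0.05 for Psmb6, -0.19 and 0.15 for Psmb7, and -0.15 and 0.23 for Calr. For Low against NT they ran between -0.22 and 0.04 for B2m and -0.34 and 0.07 for Tapbp, for High against Low between -0.21 and 0.15 for Tapbp, and for K3174 against K3117 between -0.29 and 0.07 for Psmb8 and -0.16 and 0.07 for Psmb10. The cause of these shifts was not tested. Genes with few counts, such as Gbp8, Gbp9 and H2-M2, are limited by depth.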
